A study of Mus musculus with 81 samples.

Results

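The type I interferon-stimulated genes described here are genes whose transcription is induced by interferon alpha and beta and whose products act against viruses. A list of 39 gene symbols was matched to probes that carry only that symbol, and each gene was read from its brightest probe. Of the 39 genes, 35 were found and all 35 passed the filter on dim genes, out of 17099 genes tested and 22180 genes with a probe of their own. Oas1a, Dtx3l and Ifi27l2a had only probes shared with a neighbouring or related gene, and Ifi44 had no probe that could be named, so these 4 have no value.

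The arrays came from macrophages and progenitors sorted from mice with a knockout of Irf8, whose product belongs to the interferon regulatory factors, and from wild-type mice. There were 81 arrays of 80 samples in 27 groups. Knockout and wild type were both measured in 13 populations. These were the yolk sac populations A1 and A2 at E9.5, which the labels class as erythro-myeloid progenitors, and at E14 the microglia of the brain, the Kupffer cells of the liver, the F4/80high macrophages of the kidney and the CD11bhigh macrophages of liver and kidney. The same 5 E14 populations were also taken from adults of 6 weeks, together with the Langerhans cells of the skin. Erythro-myeloid progenitors of the E8 yolk sac were wild type only. Which allele was used is not stated in the labels. The titles of the wild-type Langerhans samples carry a GFP+ mark and those of the knockout samples do not, so this mark and the genotype cannot be told apart. There were 3 samples in each group apart from the F4/80high macrophages of wild-type E14 kidney, of which there were 2. The labels do not say that samples of a group came from separate animals, so the p-values measure the spread between these samples, which may be partly technical.

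Type I interferons bind a shared receptor made of the Ifnar1 and Ifnar2 chains, whose kinases Jak1 and Tyk2 phosphorylate Stat2. Stat2 and Irf9 belong to a complex that binds interferon-stimulated response elements in promoters. The genes it induces encode sensors of viral nucleic acids, enzymes that degrade or block viral RNA, proteins that hold virus at membranes, and Irf7 and Stat2, which amplify the response.

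The response element is known as a pair of GAAA blocks with a short spacer, which some interferon regulatory factors also bind, and a block that begins with GGAA is known as a composite element for Ets factors and Irf8. Promoter windows from RefSeq on GRCm38.p6, each of 300 bases from 250 before to 50 after a gene's start, were present for 26 of the 35 genes. The motif of GAAA, any 2 bases and GAAA, searched on both strands, was found in the windows of 15 of these 26 genes, against 3.99% of 27025 genes. The motif of GGAA, any 2 bases and GAAA, searched in the same way, was found in 3 of 26, against 3.16% of all genes, and Stat2 held overlapping matches to both. Dhx58, Mx1, Mx2, Oas2, Parp14, Parp9, Rtp4, Usp18 and Zbp1 had no window. A match describes the letters of the window and is no evidence of binding. Stretches are shown for 8 genes that stand for the roles described in the results, on the strand of the gene and with the matched letters in capitals, TTTC marking a match on the opposite strand.
Ifit1, chr19:34640755-34640843, plus strand: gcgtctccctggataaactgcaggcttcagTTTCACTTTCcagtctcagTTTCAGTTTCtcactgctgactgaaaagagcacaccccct
Isg15, chr4:156200845-156200926, minus strand: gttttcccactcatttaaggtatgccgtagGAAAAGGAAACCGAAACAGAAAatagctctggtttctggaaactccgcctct
Rsad2, chr12:26456533-26456602, minus strand: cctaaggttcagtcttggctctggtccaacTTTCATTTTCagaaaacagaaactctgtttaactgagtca
Oas3, chr5:120777695-120777764, minus strand: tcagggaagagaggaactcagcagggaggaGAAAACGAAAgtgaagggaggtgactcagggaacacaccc
Bst2, chr8:71537557-71537632, minus strand: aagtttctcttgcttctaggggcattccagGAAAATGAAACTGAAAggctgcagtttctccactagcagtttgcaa
Stat2, chr10:128270248-128270321, plus strand: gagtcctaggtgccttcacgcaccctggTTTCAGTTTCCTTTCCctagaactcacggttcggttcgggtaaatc
Slfn5, chr11:82951917-82951986, plus strand: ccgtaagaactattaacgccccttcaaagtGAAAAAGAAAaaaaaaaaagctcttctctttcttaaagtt
Phf11b, chr14:59341341-59341410, minus strand: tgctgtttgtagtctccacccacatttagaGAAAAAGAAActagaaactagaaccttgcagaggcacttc
Isg15 held 3 overlapping matches and Bst2 held 2, while Ifit1 held 2 that lay apart. Slfn5 and Phf11b carried the same letters, GAAAAAGAAA, and in knockout adult microglia Slfn5 rose while Phf11b fell.

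Several of the 35 genes lie next to each other in the genome. On RefSeq's GRCm38.p6, Oas2 and Oas3 are 3212 bases apart on chromosome 5 and Phf11b and Phf11d are 6019 bases apart on chromosome 14. Ifit2, Ifit3 and Ifit1 share a stretch of chromosome 19, Rsad2 and Cmpk2 are neighbours on chromosome 12, Slfn5 and Slfn8 on chromosome 11, and Mx1 and Mx2 on chromosome 16. Such neighbours are not independent of each other, and related genes can share probe sequence.

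Marker levels differed between genotypes, which bears on what follows, and some samples also carried markers of other cells. In E14 liver CD11bhigh macrophages of both genotypes the neutrophil list means, given below, lay above the macrophage list means. Over 7 microglia markers the mean level was 7.83 to 7.92 log2 units in knockout adult microglia, against 9.85 to 10.1 in wild-type adult microglia, and the 7 macrophage markers had means of 9.68 to 9.77 in knockout and 10.1 to 10.2 in wild type there. Kupffer cell markers had means of 5.74 to 6.21 in knockout and 7.83 to 8.08 in wild-type E14 Kupffer cells, and E8 progenitors had the lowest macrophage marker means, 3.53 to 3.73. Irf8 itself passed the test as lower in 4 of the 13 populations, and its mean in adult microglia was 10.3 in knockout and 9.83 in wild type. Where its probe lies relative to the deleted part is unknown here, so its level does not check the labels. In bulk samples such as these, fewer cells of a type and less RNA per cell cannot be told apart. Values are log2 signals, so a difference of 1 is a 2-fold difference. Precision is limited by how many arrays there are.

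At E14, samples of one genotype with the same number had like levels of the sex-linked gene Xist in several populations. Titles and descriptions conflict for some numbers, and those used here follow titles in liver and descriptions in kidney. All 3 wild-type samples of Kupffer cells and of liver CD11bhigh macrophages were described as replicate 1, and knockout liver CD11bhigh sample 3 as 2. Wild-type kidney F4/80high and knockout kidney samples numbered 1 and 2 here were titled 2 and 3. Knockout samples 1, 2 and 3 had 9.71, 9.15 and 3.17 in microglia, 9.24, 8.72 and 3.14 in Kupffer cells and 9.4, 9.29 and 3.21 in liver CD11bhigh macrophages. The knockout kidney samples had 9.33, 5.01 and 8.04 in CD11bhigh and 9.53, 5.17 and 8.44 in F4/80high macrophages. The labels do not say that these samples came from the same embryos, but they may have, so results of E14 populations are not independent of each other. With such samples as a random block, chosen after these levels were seen, the counts of genes called stayed within 1.5 times in all 24 comparisons.

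In wild-type cells the interferon-stimulated genes were highest in the tissue-resident and CD11bhigh macrophages of adult liver and kidney and lowest in E8 progenitors. The mean over the 35 genes was 7.37 ± 0.18 (SD, n = 3) in adult kidney F4/80high macrophages, 7.37 ± 0.22 in adult liver CD11bhigh macrophages and 7.21 ± 0.10 in adult Kupffer cells, and neighbours in this order overlapped. Next came adult kidney CD11bhigh macrophages with 6.68 ± 0.29, followed by the E14 kidney CD11bhigh macrophages with 6.19 ± 0.15, E14 Kupffer cells with 5.87 ± 0.04 and E14 kidney F4/80high macrophages with 5.61 (n = 2). From E14 liver CD11bhigh macrophages at 5.45 ± 0.17 down to A2 at 4.75 ± 0.05, neighbours again overlapped, with A1 at 5.23 ± 0.46, adult microglia at 5.04 ± 0.08 and E14 microglia at 4.96 ± 0.19 between them. Langerhans cells followed with 4.09 ± 0.01 and E8 progenitors had the lowest mean, 3.35 ± 0.07.

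**Figure D1:**
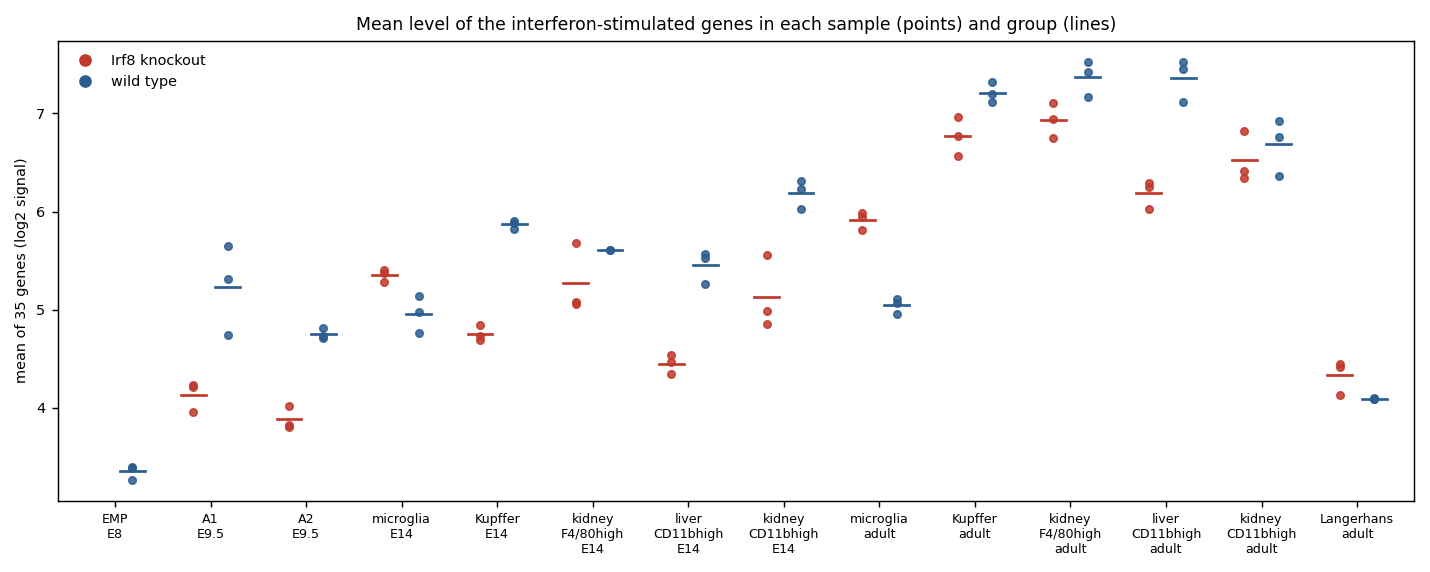
Mean log2 signal of the 35 interferon-stimulated genes (vertical axis) in each population and stage (horizontal axis), with a point per sample, a line at each group mean, Irf8 knockout in red on the left and wild type in blue on the right. Knockout points lie above all wild-type points in microglia of both stages and in Langerhans cells, and below them in the other populations, except E14 kidney F4/80high and adult kidney CD11bhigh macrophages, where the points overlap.

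Single genes followed the mean with exceptions. Adult liver CD11bhigh macrophages had the highest wild-type mean for 15 of the 35 genes and adult kidney F4/80high macrophages for 14, while E8 progenitors had the lowest for 25 and Langerhans cells for 8. Ifitm3, which encodes a membrane protein that blocks virus entry at endosomes, was lowest in adult microglia at 6.80 and highest in adult liver CD11bhigh macrophages at 11.2. Oas2, an oligoadenylate synthetase that makes the activator of RNase L, spanned 6.90 log2 units between E8 progenitors, where it was lowest, and adult kidney F4/80high macrophages at 9.83. In a moderated F-test over the 14 wild-type groups all 35 genes passed the threshold, where 84.6% of all genes did.

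Most of the genes were higher in adult than in E14 wild-type Kupffer cells, liver CD11bhigh macrophages and kidney F4/80high macrophages, while 13 passed as higher in kidney CD11bhigh macrophages and 6 in microglia. In liver CD11bhigh macrophages all 35 were higher in adults, where 34.3% of all genes were called in either direction and 14% as higher, with a median adult minus E14 difference of 2.02. In Kupffer cells 31 were higher and 1 lower against 30% of all genes called, 11.8% as higher and 18.3% as lower, with a median of 1.31. In kidney F4/80high macrophages 32 were higher against 28.2% of all genes called and 12.2% called as higher, with a median of 1.5. The median over all genes was between -0.06 and -0.01 in these and the other stage comparisons. Oas3 in Kupffer cells (3.20 ± 0.29, adjusted p = 2.17e-14), Oas2 in kidney F4/80high macrophages (3.41 ± 0.33, adjusted p = 1.47e-12) and Zbp1, a sensor of Z-form nucleic acids, in liver CD11bhigh macrophages (2.89 ± 0.32, adjusted p = 1.66e-11) had the largest differences in their comparisons. Isg20, an exonuclease of RNA, was the gene that fell in Kupffer cells (-0.77 ± 0.26, adjusted p = 0.0178).

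In kidney CD11bhigh macrophages 13 genes were higher in adults, where 35% of all genes were called, 14.4% as higher and 20.6% as lower, and Bst2 (-0.98 ± 0.26), which tethers budding virus, was lower. In microglia 6 genes were higher and 3 lower in adults, where 18.3% of all genes were called, 6.68% as higher and 11.7% as lower, and the median difference was 0.03. Phf11d (1.61 ± 0.38), Slfn8 (1.35 ± 0.47) and the RNA sensor gene Ddx58 (1.10 ± 0.22), which encodes RIG-I, were among those that rose, and Oas2 (-1.31 ± 0.30), Ifit2 (-0.88 ± 0.25) and Stat2 (-0.77 ± 0.18) fell. Leaving out wild-type E14 microglia replicate 2 or replicate 3 left 5 calls each in place of 9, while array weights gave 16 and a fit of the compared groups alone gave 15.

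**Figure D2:**
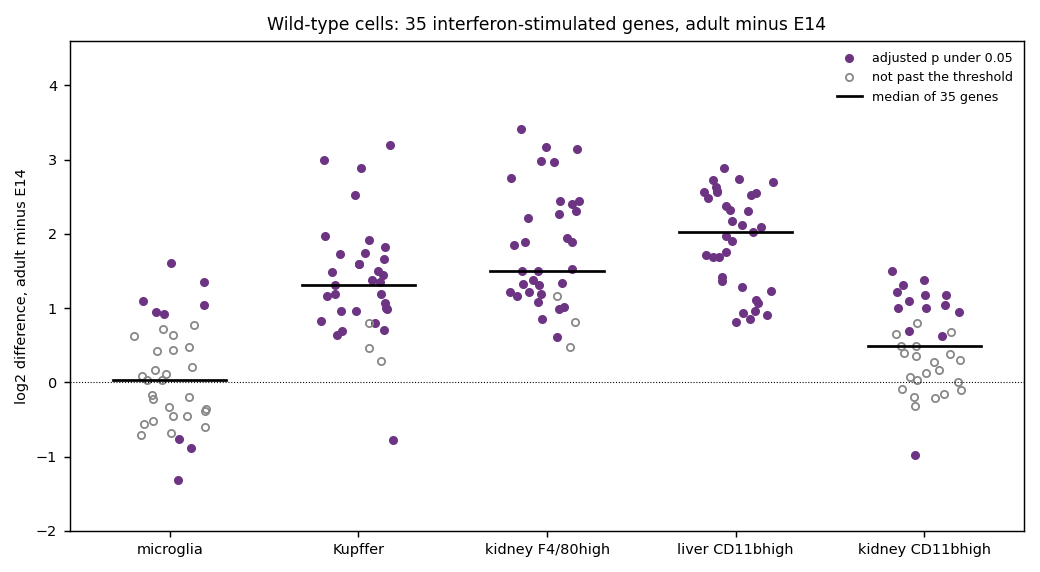
Adult minus E14 log2 difference (vertical axis) of each of the 35 genes in wild-type cells of 5 populations (horizontal axis), with filled points for adjusted p under 0.05, open points for the rest and a bar at the median. All points lie above 0 in the liver CD11bhigh and kidney F4/80high populations, while those of microglia lie on both sides of 0.

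Genes that passed the test were mostly higher in knockout microglia, at both stages. In liver, kidney and yolk sac the genes that passed were lower apart from Samd9l, and they were 2 to 26 of the 35, with medians near 0 in E14 kidney F4/80high (-0.07) and adult kidney CD11bhigh macrophages (-0.12). With the exception of Langerhans cells and of Samd9l in E14 liver CD11bhigh macrophages no gene of the 35 passed as higher in any other population. Over the 13 populations 24 of the 35 genes were called in both directions, 11 only as lower, and every gene was called at least once. The matching shares of all genes were not counted, so these totals do not set the 35 apart from other genes. Phf11b was called lower in 11 populations, Zbp1 in 9, Mx1 in 8 and Mx2 in 7. Oas2, Ddx58, Xaf1 and Samd9l were each called higher in 3.

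**Figure D3:**
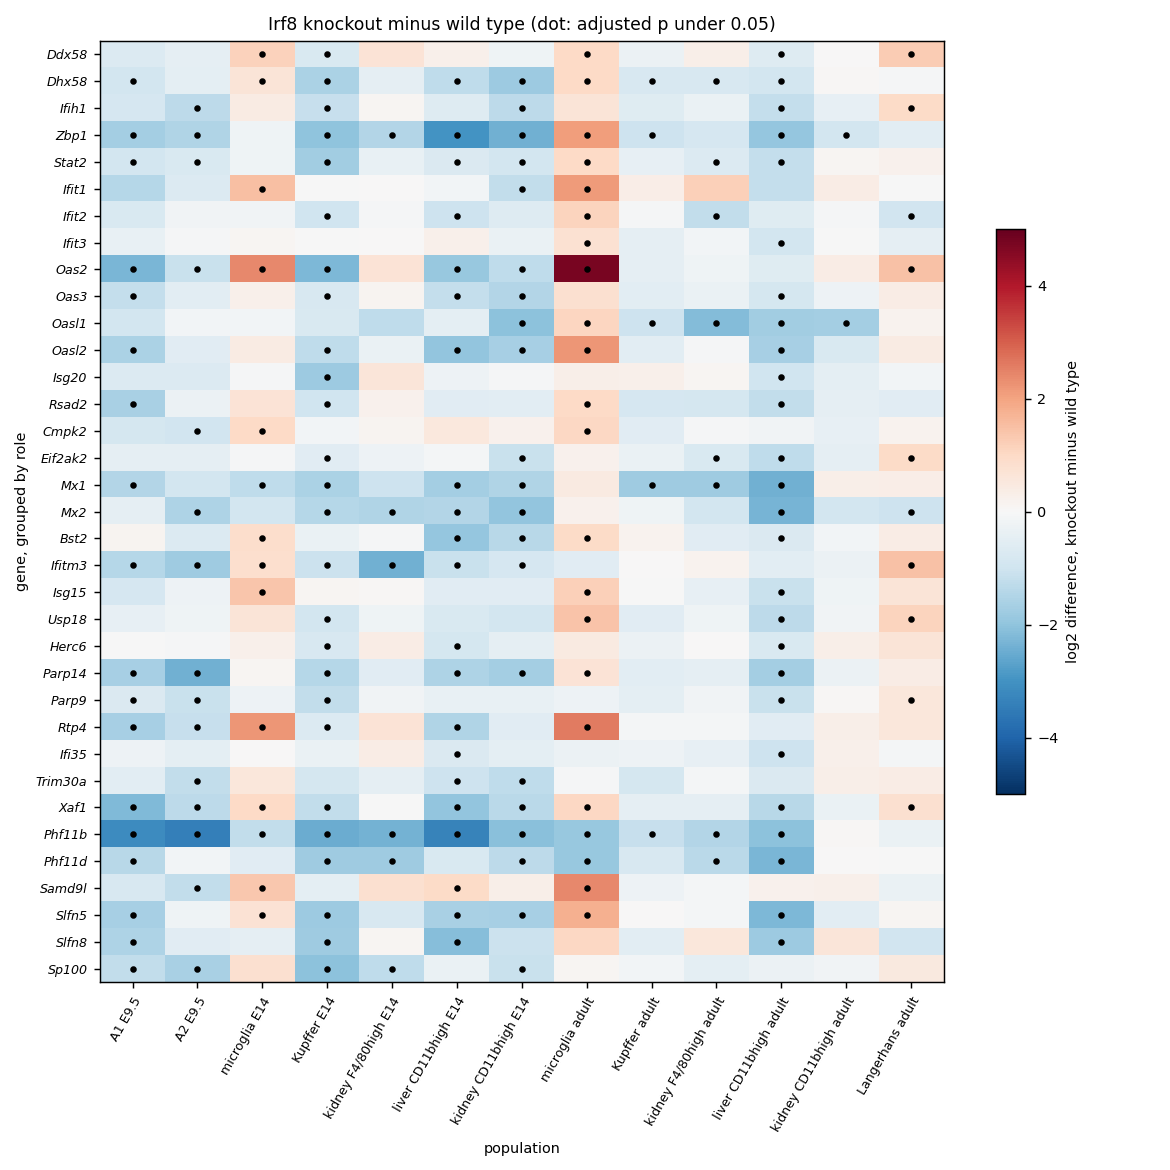
Knockout minus wild type log2 difference (colour, red for higher in the knockout) of each of the 35 genes (rows, grouped by role) in 13 populations (columns, by stage), with a dot where the adjusted p was under 0.05. Both microglia columns and the Langerhans column hold most of the red cells with a dot, and the Phf11b row is blue with a dot in 11 of 13 columns.

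In knockout adult microglia 20 of the 35 interferon-stimulated genes were higher and 2 were lower, where 14.6% of all genes were called in either direction, 5.85% as higher and 8.71% as lower. The median difference of the 35 was 0.98, against -0.03 over all genes. Sensors, IFIT genes, oligoadenylate synthetases, the ISG15 system and Stat2 all had members that rose, while neither Mx gene passed the test. Oas2 rose the most.

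Among the sensors, Zbp1 had 5.73, 5.77 and 6.21 in knockout adult microglia, against 3.73, 4.04 and 3.67 in wild-type adult microglia. All knockout samples lay above all wild-type samples, by 2.09 ± 0.32 (SE, adjusted p = 4.83e-07). Ddx58 and Dhx58, a regulator of the RIG-I family, rose by 1.0 and 0.99, and Ifih1, which encodes MDA5, did not pass the test. Stat2, the partner of Irf9 in the interferon-activated complex, had 6.43, 6.35 and 6.78 in knockout and 5.40, 5.44 and 5.76 in wild type, again without overlap.

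All 3 IFIT genes, whose products bind viral RNA ends and translation factors, rose. Ifit1 had 5.73, 6.52 and 5.7 in knockout adult microglia, against 4.0, 3.83 and 3.77 in wild type. The groups were separate by more than 1 log2 unit (2.12 ± 0.44, adjusted p = 0.000188). Ifit2 rose by 1.12 without overlap, and Ifit3 by 0.75 with 1 wild-type sample above the lowest knockout sample.

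Oas2 had 8.82, 9.06 and 9.03 in knockout adult microglia, against 3.33, 4.96 and 4.36 in wild type (4.76 ± 0.30, adjusted p = 5.51e-21). The knockout samples were nearly equal and stood close to the levels of wild-type adult liver CD11bhigh macrophages. The wild-type microglia had the lowest mean of the adult wild-type populations and overlapped with Langerhans cells. Oasl2, of the same family, had 5.46, 6.28 and 4.95 in knockout and 3.44, 3.49 and 3.15 in wild type, without overlap (2.20 ± 0.34, adjusted p = 7.38e-07). Oasl1 rose by 1.06 and Oas3, the neighbour of Oas2, did not pass the test.

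The remaining genes that rose came from several roles. Rtp4, which encodes a chaperone of membrane receptors, had 8.11, 8.37 and 8.10 in knockout adult microglia, against 5.30, 5.88 and 5.57 in wild type (2.61 ± 0.26, adjusted p = 1.89e-12). Samd9l, a cytoplasmic restriction factor, had 6.52, 6.27 and 6.47 in knockout, against 4.12, 3.83 and 4.11 in wild type (2.40 ± 0.25, adjusted p = 5.59e-12). Neither gene's groups overlapped. Isg15, a ubiquitin-like modifier, Usp18, the protease that removes it, and Slfn5 rose by 1.20, 1.41 and 1.77, and Cmpk2, Rsad2 (viperin), Bst2, Xaf1 and Parp14 by 0.69 to 1.05. The wild-type means of Slfn5, Ifit2 and Oasl1, 2.73, 2.70 and 2.56, lay below the floor on dim genes, 3.04. The sizes of their rises thus rest on values that were not above it.

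Phf11b and Phf11d, neighbours that encode PHD finger proteins, went the other way. Phf11b had 5.20, 5.81 and 5.83 in knockout adult microglia, against 7.61, 7.69 and 7.24 in wild type, a fall of 1.90 on the log2 scale without overlap. Phf11d had 2.89, 2.23 and 2.29 in knockout and 3.82, 4.80 and 4.44 in wild type. Its knockout values lay below 3.04, the floor on dim genes. Beside these values, 3 of 7 microglia markers and 2 of 7 macrophage markers were lower in knockout adult microglia, and 2 of 14 neutrophil markers were higher, with list means of 5.55 to 6.73 in knockout and 3.70 to 7.19 in wild type. The part of other cells in the result was not tested. Wild-type adult microglia replicate 1 differed from the other 5 samples in the sex-linked gene Xist (2.99 against 10.2 to 10.7), and leaving out each of the 6 samples in turn left 16 to 21 calls.

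In embryonic microglia, as in adult microglia, Oas2 and Rtp4 were the genes that rose most in the knockout. In knockout E14 microglia 12 genes were higher and 2 lower, where 14.3% of all genes were called, 8.3% as higher and 5.98% as lower, with a median of 0.41 against 0.03 over all genes. Oas2 had 8.14, 7.65 and 8.06 in knockout E14 microglia and 5.04, 5.71 and 5.85 in wild type (2.42 ± 0.30, adjusted p = 3.07e-09). Rtp4 had 8.11, 7.67 and 8.10 in knockout and 5.37, 6.18 and 5.73 in wild type (2.20 ± 0.26, adjusted p = 1.57e-09). In both genes all knockout samples lay more than 1 log2 unit above all wild-type samples. Isg15 (1.39 ± 0.34), Ifit1 (1.52 ± 0.44) and Samd9l (1.34 ± 0.25) also rose without overlap, and Ifit1 was no longer called without knockout replicate 2 (adjusted p = 0.0533) or wild-type replicate 1 (adjusted p = 0.0634).

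Zbp1, which rose in adult microglia, had 4.37, 4.19 and 4.38 in knockout E14 microglia and 4.53, 4.76 and 4.26 in wild type, with overlapping groups. Mx1, a dynamin-like GTPase, had 2.39, 1.99 and 2.18 in knockout and 2.99, 3.76 and 3.58 in wild type and was the gene that fell together with Phf11b. The knockout values of Mx1 lay below the floor of 3.04. Markers of other cells moved strongly with genotype in this population. All 8 monocyte markers tested were higher in knockout, with list means of 6.58 to 6.91 against 3.81 to 4.77 in wild type, and of 14 neutrophil markers 9 were higher and 1 lower, with means of 8.38 to 8.88 against 3.92 to 7.18. Their part in the result was not tested.

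The adult difference exceeded the embryonic difference for 8 genes and fell short of it for 1, where 10.5% of all genes were called for this difference of differences, 3.7% as higher and 6.8% as lower. Oas2 differed by 2.34 ± 0.42 (adjusted p = 4.29e-05), Zbp1 by 2.29 and Oasl2 by 1.79, followed by Mx1, Ifit2, Stat2, Samd9l and Slfn5 with 1.05 to 1.70. Ifitm3 was the exception at -1.41: it had 5.81, 6.81 and 6.04 in knockout adult microglia and 7.08, 7.04 and 6.28 in wild type, against a rise of 0.82 ± 0.25 in knockout E14 microglia.

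**Figure D4:**
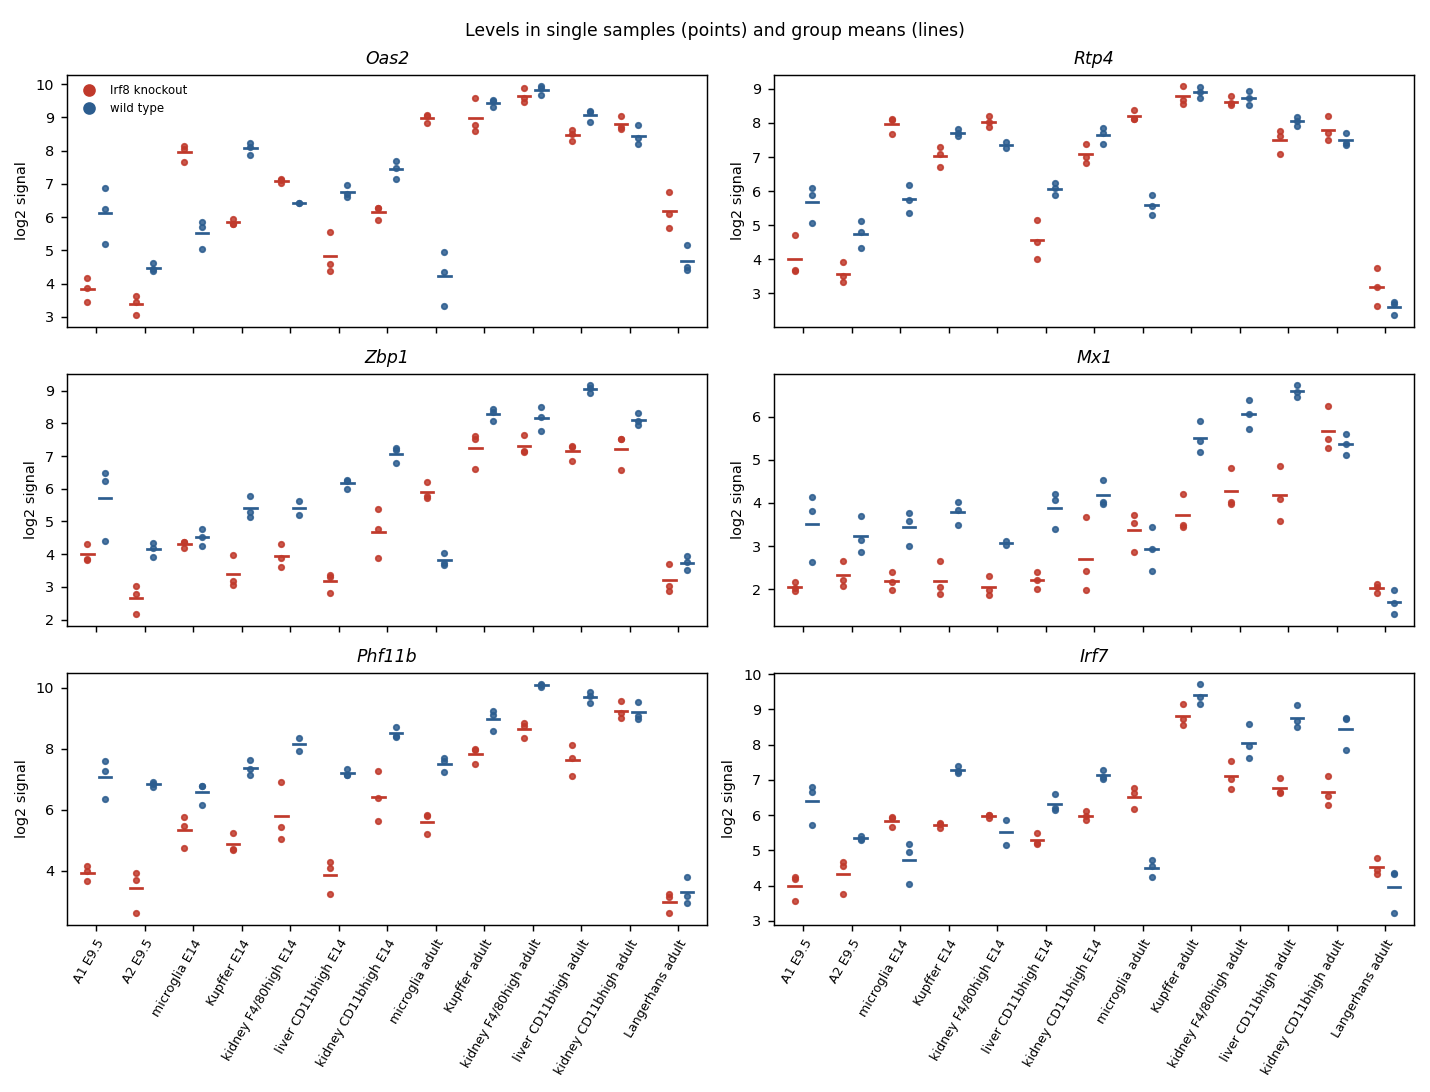
Log2 signal (vertical axes) of Oas2, Rtp4, Zbp1, Mx1, Phf11b and the signalling gene Irf7 in each population (horizontal axis, by stage), with a point per sample, a line at each group mean, knockout in red on the left and wild type in blue on the right. Oas2 and Rtp4 stand above wild type in knockout microglia of both stages, and Phf11b stands below wild type except in adult kidney CD11bhigh macrophages and Langerhans cells, where the points overlap.

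Langerhans cells had 8 of the 35 genes higher in knockout and 2 lower, a share of the 35 near the 27% of all genes called there, 16.6% as higher and 10.4% as lower, with a median of 0.33 against -0.01 over all genes. Ddx58 had 5.47, 5.24 and 5.40 in knockout Langerhans cells and 4.20, 3.86 and 4.27 in wild type (1.26 ± 0.22, adjusted p = 6.36e-06). Oas2 had 6.75, 6.09 and 5.68 in knockout and 5.15, 4.51 and 4.42 in wild type (1.48 ± 0.30, adjusted p = 5.74e-05). Ifitm3 had 10.10, 10.23 and 10.47 in knockout and 8.79, 8.83 and 8.76 in wild type (1.47 ± 0.25, adjusted p = 2.72e-06). The groups of these 3 genes did not overlap.

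Usp18 rose by 1.12 ± 0.33, Mx2 fell by 1.04 on the log2 scale and Ifit2 fell by 0.96. Both group means of Ifit2, 1.87 in knockout and 2.83 in wild type, lay below the floor of 3.04. So did the knockout mean of Mx2, 2.51. The calls of Usp18 and Mx2 were lost without single knockout or wild-type samples, with adjusted p values of 0.0588 to 0.0888. All 7 keratinocyte markers tested were higher in knockout Langerhans samples, with list means of 9.12 to 9.49 against 7.03 to 7.34 in wild type. The male-linked gene Eif2s3y was also higher, at 4.87 to 7.57 against 1.31 to 2.68. The part of either in the result was not tested.

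Adult liver CD11bhigh macrophages had the most genes called as lower among the adult populations. In the knockout 26 of the 35 genes were lower, where 16.8% of all genes were called in either direction and 7.56% as lower, with a median of -1.13 against -0.02 over all genes. The 9 that did not pass the test included Ifit1, Ifit2, Oas2, Rtp4, Cmpk2, Ifitm3 and Samd9l. All 4 sensor genes, both Mx genes, both PARP genes and all 3 genes of the ISG15 system fell.

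Mx1 had 3.57, 4.86 and 4.09 in knockout adult liver CD11bhigh macrophages, against 6.46, 6.73 and 6.57 in wild type (-2.42 ± 0.33, adjusted p = 2.57e-08). Mx2 had 3.56, 4.05 and 4.21 in knockout and 5.84, 6.53 and 6.37 in wild type (-2.31 ± 0.35, adjusted p = 3.62e-07). Slfn5, a member of the Schlafen family, had 4.15, 4.70 and 4.23 in knockout and 6.5, 6.68 and 6.69 in wild type (-2.26 ± 0.25, adjusted p = 4.07e-11). The highest knockout sample lay more than 1 log2 unit below the lowest wild-type sample in each of the 3 genes. Phf11d, Phf11b and Zbp1 fell by 2.30, 2.05 and 1.91 on the log2 scale, and the other 20 genes by 0.65 to 1.80. Beside this, 10 of 14 neutrophil markers were higher in the knockout, with list means of 10.1 to 10.4 against 5.75 to 7.30 in wild type, and 5 of 7 macrophage markers were lower. Of 8 monocyte markers 4 were lower, with means of 8.29 to 8.54 in knockout against 9.33 to 9.81 in wild type, and 5 of 7 B cell markers were higher, with means of 4.23 to 5.28 against 3.56 to 3.68. The part of these cells in the result was not tested.

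Adult Kupffer cells had 5 genes lower in the knockout, where 11.9% of all genes were called in either direction and 7.39% as lower, with a median of -0.47 against -0.04 over all genes. Mx1 had 4.21, 3.48 and 3.44 in knockout adult Kupffer cells and 5.43, 5.89 and 5.19 in wild type, without overlap (-1.79 ± 0.33, adjusted p = 6.79e-05). Phf11b (-1.16 ± 0.34), Zbp1 (-1.03 ± 0.32), Oasl1 (-1.02 ± 0.34) and Dhx58 (-0.79 ± 0.21) also fell, and each of these 4 calls was lost without at least 1 sample. The count was 1 without wild-type replicate 2, 3 without wild-type replicate 1 or knockout replicate 2 or 3, and 8 without knockout replicate 1. Oas2 had 9.59, 8.78 and 8.59 in knockout and 9.32, 9.50 and 9.51 in wild type, with overlapping groups. Xist was 9.52 to 9.99 in the knockout samples and 2.71 to 3.88 in the wild-type samples, so sex and genotype cannot be told apart here. Of 10 endothelial markers 9 were higher in the knockout, with list means of 7.30 to 7.72 against 5.06 to 6.72, and their part in the result was not tested.

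In the adult kidney the F4/80high macrophages had 8 genes lower in the knockout, where 3.56% of all genes were called in either direction and 2.19% as lower, with a median of -0.34. Oasl1 had 4.06, 4.16 and 3.78 in knockout and 6.20, 6.32 and 5.93 in wild type (-2.15 ± 0.34, adjusted p = 5.91e-06). Mx1 had 4.81, 3.98 and 4.03 in knockout and 5.71, 6.06 and 6.39 in wild type (-1.78 ± 0.33, adjusted p = 0.000146). Both genes were lower in all knockout samples. Phf11b, Phf11d, Ifit2, Dhx58, Stat2 and Eif2ak2, which encodes the RNA-dependent kinase PKR, fell by 0.67 to 1.45 on the log2 scale. Without knockout replicate 3 there were 3 calls and without wild-type replicate 2 there were 4.

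Adult kidney CD11bhigh macrophages had 2 genes lower in the knockout, where 13.6% of all genes were called in either direction and 6.7% as lower, so that the share of the 35 did not exceed that of all genes. The median was -0.12, and it was 0.04 without knockout replicate 3. Oasl1 had 3.51, 3.98 and 3.36 in knockout and 4.58, 5.39 and 5.91 in wild type, without overlap (-1.68 ± 0.34, adjusted p = 0.000225). Zbp1 (-0.91 ± 0.32, adjusted p = 0.0451) lost its call without any of 4 of the 6 samples, and the count of calls ran from 1, without wild-type replicate 2 or 3 or knockout replicate 3, to 4, without wild-type replicate 1. Phf11b, lower in the knockout in 11 other populations, had 9.03, 9.56 and 9.16 in knockout and 8.97, 9.53 and 9.09 in wild type. Of 14 neutrophil markers 11 were higher and 1 lower in the knockout, with list means of 7.91 to 8.72 against 3.89 to 5.09, and their part in the result was not tested.

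The differences between the knockout effects were tested directly. The effect in adult microglia was higher than that in adult Kupffer cells for 21 of the 35 genes and lower for none, where 12.8% of all genes were called for this difference and 6.65% as higher. Against kidney F4/80high macrophages it was higher for 18, where 8.36% of all genes were called and 3.82% as higher. Against liver CD11bhigh macrophages it was higher for 30, where 18% of all genes were called and 7.34% as higher. Against kidney CD11bhigh macrophages it was higher for 20 and lower for Phf11b and Phf11d, where 14.7% of all genes were called, 6.01% as higher and 8.68% as lower. Against Langerhans cells the microglial effect was higher for 13 genes and lower for Parp9, Phf11b, Phf11d and Ifitm3, where 24.5% of all genes were called, 8.74% as higher and 15.7% as lower. Oas2 had the largest difference in each, 5.21 ± 0.42 against Kupffer cells, 4.96 against kidney F4/80high, 5.36 against liver CD11bhigh, 4.4 against kidney CD11bhigh macrophages and 3.28 against Langerhans cells, with adjusted p values between 1.86e-16 and 4.14e-09. These comparisons share the microglial samples and are not independent of each other. In the comparison with kidney CD11bhigh macrophages 14 calls were left without wild-type adult microglia replicate 1 and 13 without knockout kidney CD11bhigh replicate 3.

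**Figure D5:**
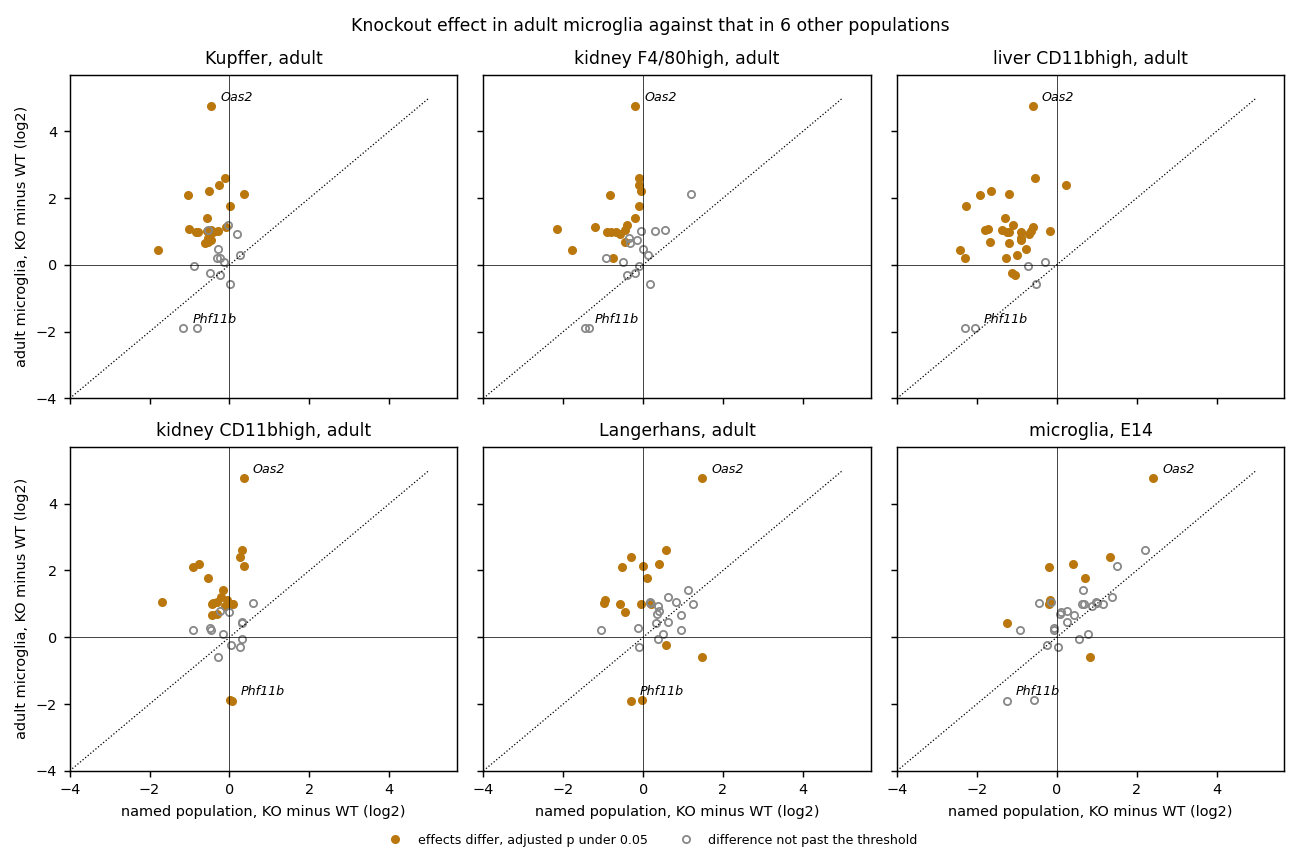
Knockout minus wild type log2 difference in adult microglia (vertical axes) against that in 6 other populations (horizontal axes), with a point per gene, filled where the effects differed at adjusted p under 0.05 and a dotted line where both effects are equal. Oas2 stands at 4.76 on the vertical axis and to the left of the line in all 6 panels, and the panel of E14 microglia has the fewest filled points, 9.

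At E14 most of the genes were lower in knockout Kupffer cells and in both knockout CD11bhigh populations, and 6 were lower in kidney F4/80high macrophages. Knockout E14 Kupffer cells had 26 of the 35 genes lower, where 23% of all genes were called in either direction and 9.81% as lower, with a median of -1.09 against 0.03 over all genes. Oas2 had 5.95, 5.78 and 5.79 in knockout E14 Kupffer cells, against 8.24, 8.09 and 7.88 in wild type (-2.23 ± 0.30, adjusted p = 2.15e-08). Stat2 had 4.71, 5.0 and 4.95 in knockout and 6.68, 6.69 and 6.51 in wild type, again without overlap. Phf11b had 5.24, 4.68 and 4.72 in knockout and 7.15, 7.63 and 7.35 in wild type (-2.50 ± 0.34, adjusted p = 4.78e-08). Sp100, a nuclear body protein gene, Zbp1, Isg20 and Slfn5 fell by 1.81 to 2.07. All 7 macrophage markers and 6 of 8 Kupffer cell markers were also lower and 5 of 6 progenitor markers higher in knockout E14 Kupffer cells, and their part in the result was not tested.

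In knockout E14 liver CD11bhigh macrophages 20 genes were lower and 1 higher, where 14% of all genes were called, 8.29% as lower and 5.73% as higher, with a median of -0.87. Phf11b had 4.28, 3.24 and 4.10 in knockout, against 7.16, 7.34 and 7.14 in wild type (-3.34 ± 0.34, adjusted p = 1.53e-11). Zbp1 had 3.30, 3.37 and 2.82 in knockout and 6.28, 6.23 and 6.01 in wild type (-3.01 ± 0.32, adjusted p = 3.82e-11). The knockout levels of Zbp1 were close to 3.04, the floor on dim genes. Slfn8, Oasl2, Xaf1 and Bst2 fell by 1.92 to 2.14, and the knockout means of Slfn8 and Oasl2, 2.70 each, lay below this floor. Samd9l went against the rest, with 6.24, 6.72 and 6.38 in knockout and 5.48, 5.38 and 5.59 in wild type (0.97 ± 0.25, adjusted p = 0.00392). Of 7 macrophage markers 4 were lower in the knockout here, with list means of 6.02 to 6.38 against 7.69 to 7.85 in wild type. Of 8 monocyte markers 4 were lower, with means of 6.89 to 7.21 against 8.44 to 8.51, and 3 of 14 neutrophil markers were higher, with means of 10.25 to 10.33 against 9.63 to 9.8. Their part in the result was not tested.

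Knockout E14 kidney CD11bhigh macrophages had 21 genes lower, where 14% of all genes were called in either direction and 8.05% as lower, with a median of -1.13. Zbp1 had 3.88, 4.77 and 5.37 in knockout and 7.19, 6.80 and 7.24 in wild type, without overlap (-2.40 ± 0.32, adjusted p = 4.31e-08). Dhx58 had 3.96, 4.12 and 4.83 in knockout and 6.20, 5.86 and 6.24 in wild type (-1.80 ± 0.21, adjusted p = 3.66e-09). Phf11b, Oasl1, Mx2 and Parp14 fell by 1.69 to 2.08. Knockout replicate 3 had the highest mean over the 35 genes of its group, 5.55 against 4.85 and 4.99, and without it the median was -1.35. Of 14 neutrophil markers 8 were higher and of 7 macrophage markers 6 were lower in the knockout, with neutrophil means of 8.68 to 10.1 against 5.28 to 7.89 in wild type, and their part in the result was not tested.

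E14 kidney F4/80high macrophages had 6 genes lower in the knockout, where 1.97% of all genes were called in either direction and 1.38% as lower, with a median of -0.07. Differences were positive for 15 of the 35 genes and negative for 20, and none passed as higher. Ifitm3 had 6.40, 6.57 and 8.17 in knockout, against 9.50 and 9.38 in wild type (-2.40 ± 0.28, adjusted p = 1.92e-08). Phf11b had 5.44, 5.05 and 6.92 in knockout and 7.93 and 8.37 in wild type (-2.34 ± 0.38, adjusted p = 4.15e-05). Knockout replicate 3 was the highest of its group in both, and its mean over the 35 genes was 5.67 against 5.08 and 5.06 in the other knockout samples. Phf11d, Mx2, Zbp1 and Sp100 fell by 1.28 to 1.79, and each of these 4 calls was lost without at least 1 sample, with 2 calls left without either wild-type sample and 3 without knockout replicate 1 or 2. Without a wild-type sample the other is alone, and it is assumed to vary like the other groups. Without knockout replicate 3 the median was -0.35 and 8 genes were called.

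In both yolk sac populations at E9.5 the genes that passed the test were lower in the knockout. In A1 18 genes were lower in the knockout, where 3.36% of all genes were called in either direction and 2.77% as lower, with a median of -0.92. In A2 15 were lower, where 10% of all genes were called and 6.28% as lower, with a median of -0.67. Phf11b had 3.99, 4.16 and 3.68 in knockout A1, against 6.35, 7.60 and 7.29 in wild-type A1 (-3.14 ± 0.34, adjusted p = 3.52e-10). In A2 it had 3.92, 2.63 and 3.71 in knockout, against 6.84, 6.76 and 6.90 in wild type (-3.42 ± 0.34, adjusted p = 5.15e-12). Neither population's groups overlapped.

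Oas2 had 4.17, 3.87 and 3.46 in knockout A1 and 5.20, 6.25 and 6.88 in wild-type A1 (-2.28 ± 0.30, adjusted p = 4.78e-08). Parp14, an ADP-ribosyltransferase gene, had 4.02, 3.74 and 3.92 in knockout A2 and 6.29, 6.39 and 6.17 in wild-type A2 (-2.39 ± 0.23, adjusted p = 1.22e-12). Wild-type A1 replicate 1 had a mean over the 35 genes of 4.74, against 5.31 and 5.65 in the other wild-type samples, and without it the median difference was -1.12. In A1 Xaf1, Zbp1, Rtp4 and Slfn5 fell by 1.66 to 2.20, and in A2 Ifitm3, Sp100, Mx2 and Zbp1 fell by 1.49 to 1.77. Macrophage markers were lower in the knockout too, 6 of 7 in A1 and all 7 in A2, with means of 5.03 to 5.36 against 6.66 to 7.12 in A1 and 6.47 to 6.85 against 8.62 to 8.77 in A2. Of 8 monocyte markers 4 were lower in A1, with means of 4.83 to 5.5 in knockout against 6.0 to 7.05 in wild type, and 2 were lower in A2, with means of 4.9 to 5.08 against 5.34 to 5.63. Their part in the result was not tested.

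The pathway around these genes was read from 3 lists, of which 7 ligand genes, 15 genes of receptors and signalling and 13 genes of upstream sensors and adaptors were tested. The ligands tested were Ifnb1, Ifna1, Ifna4 and Ifnk, and also Ifng, Ifnl2 and Ifnl3, which are not type I interferons. In knockout adult microglia 1 ligand gene was higher, 3 signalling genes were higher and 2 lower, and 4 sensor or adaptor genes were lower with none higher, where 5.85% of all genes were called as higher and 8.71% as lower. Irf7, the factor that amplifies interferon production and is itself induced by interferon, had 6.18, 6.76 and 6.62 in knockout adult microglia, against 4.24, 4.72 and 4.55 in wild type (2.02 ± 0.27, adjusted p = 2.7e-08). It was thus higher in every knockout sample, as Oas2 was. The receptor chain genes Ifnar1 (0.70 ± 0.18) and Ifnar2 (0.47 ± 0.11) rose, and the DNA sensor gene Cgas (-0.91 ± 0.24), its adaptor Sting1 (-0.75 ± 0.24), the RNA receptor gene Tlr3 (-1.0 ± 0.32) and Unc93b1 (-0.76 ± 0.17), which brings these receptors to endosomes, fell.

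Irf7 also rose in knockout E14 microglia (1.11 ± 0.27, adjusted p = 0.00238) and fell in 8 populations, which were all those outside microglia other than adult Kupffer cells, E14 kidney F4/80high macrophages and Langerhans cells. In adult liver CD11bhigh macrophages it had 6.65, 7.05 and 6.63 in knockout and 8.51, 8.66 and 9.13 in wild type, without overlap. Its effect in adult microglia was higher than that in each of the other adult populations, by 1.48 ± 0.39 against Langerhans cells, the smallest, to 4.01 ± 0.39 against liver CD11bhigh macrophages. Against E14 microglia the difference of 0.91 ± 0.39 did not pass the test (adjusted p = 0.139). Irf9, the DNA-binding partner of Stat2, was lower in knockout E14 Kupffer cells, both E14 CD11bhigh populations and A2, by 1.05 to 1.30.

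The endosomal receptor Tlr9 fell in 9 populations and Tlr3 in 9, and Unc93b1 in 8. In E14 liver CD11bhigh macrophages Tlr9 had 3.53, 3.46 and 3.85 in knockout, against 7.06, 6.81 and 6.62 in wild type. In E14 microglia, where interferon-stimulated genes rose, Tlr9 had 6.58, 6.27 and 6.18 in knockout and 8.30, 8.36 and 8.27 in wild type. Neither pair of groups overlapped. In Langerhans cells 6 sensor or adaptor genes were higher and 3 lower and 4 signalling genes passed in each direction, where 16.6% of all genes were called as higher and 10.4% as lower.

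Among the ligands, Ifnb1, the interferon beta gene, reached high levels in kidney samples only. In wild-type cells it had 10.28, 9.20 and 8.97 in adult kidney F4/80high macrophages and 8.28, 8.20 and 9.12 in E14 kidney CD11bhigh macrophages, while in all samples from other tissues it did not exceed 2.29. In knockout E14 kidney CD11bhigh macrophages it had 1.61, 2.51 and 7.34, a difference of -4.71 ± 0.74 from wild type (adjusted p = 1.9e-06). In E14 kidney F4/80high macrophages it had 1.78, 4.09 and 8.53 in knockout, against 7.62 and 7.88 in wild type, with overlap (-2.95 ± 0.83, adjusted p = 0.0393). Both errors rest on a spread pooled over all 27 groups. The SDs of Ifnb1 within the knockout groups were 3.08 in CD11bhigh and 3.43 in F4/80high macrophages. These errors and p-values thus understate the spread of the samples compared. In both knockout groups replicate 3, the sample with the highest mean over the interferon-stimulated genes, had the highest Ifnb1. These 2 samples carry the same number and had like levels of Xist, 8.04 and 8.44, and of Eif2s3y, 6.83 and 7.15, so they may share a source and are not independent. The 2 lower knockout values of the CD11bhigh macrophages and the lowest of the F4/80high macrophages lay below the floor of 3.04, so the sizes of these log2 differences rest on values that were not above it. In adult microglia Ifnb1 was 1.57 to 1.91 in knockout and 1.49 to 1.66 in wild type, below the floor in all samples.

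The 35 genes moved together across groups more than within them. The median correlation between pairs of genes was 0.77 over the means of 27 groups and 0.25 over the deviations of 80 samples from their group means, as a description over 595 pairs that share samples. Within groups, Parp14 (r = 0.77) and Isg15 (r = 0.71) followed the mean of the other genes most closely and Samd9l least (r = -0.01).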

How the data were processed

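Expression was measured with Affymetrix arrays, and the deposited values are on a log2 scale. Per the submitters' processing notes, the authors' tools were RMA and Affymetrix Expression Console, whose versions were not given in the sources used here. RMA scales the arrays to one distribution, so a shift of all genes would not be seen. Of 41345 probes, 23521 carried 1 gene symbol in the platform annotation and 1814 several, which were left out. Each gene took its brightest probe, and genes above the 50th percentile of all values (3.041) in at least 2 arrays were tested. Single groups of a tested gene could still lie below this floor, such as knockout A2 for Mx2 and Zbp1, with means of 2.74 and 2.66. The sizes of such differences rest on values that were not above it. The 2 runs of 1 knockout A2 sample were averaged. Over the 35 genes these runs differed by 0.47 log2 units on average and by at most 2.08. All 27 groups were fitted in limma 3.58.1 (R 4.3.3) with a trended prior, and p-values were adjusted by Benjamini-Hochberg over 17099 genes, with 0.05 as the threshold. Errors are standard errors unless marked SD. On simulated data with 200 changed genes, 61% of changes of 1 log2 unit and 98% of changes of 2 were recovered in the adult microglia comparison, 50% and 96% in E14 kidney F4/80high macrophages, and 27% and 93% for the difference of effects between adult microglia and liver CD11bhigh macrophages. The number of arrays limits the precision.

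Full statistics are given for at most 6 genes a knockout comparison, those with the largest change among genes past the threshold whose groups did not overlap; other genes are given as ranges, and pathway genes past the threshold may be named. Per-sample values of other genes, such as Stat2, Zbp1 in E14 microglia, Oas2 in Kupffer cells, Phf11b in kidney CD11bhigh macrophages and Tlr9, were chosen after their values were seen. Members and lists were chosen with earlier results of these data known. Alternatives were another floor, no floor, quantile normalization, median centring, array weights, fits of the compared groups alone, a replicate block and leaving out each sample. A fit with same-numbered samples of one genotype as a random block was added after the data were seen. It covered E14 brain and liver together, E14 kidney, adult kidney and E9.5 yolk sac, and which tissues to join rested on sex-linked genes. Promoter windows and gene positions came from RefSeq on GRCm38.p6.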

Additional observations from a re-analysis of the deposited data

Results flagged for a closer look

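The knockout effect on interferon-stimulated genes differed between adult microglia and other populations by a direct test of the difference, an interaction contrast in the same limma model. Of the 35 genes, the effects differed for 21 against adult Kupffer cells, for 18 against kidney F4/80high macrophages, for 17 against Langerhans cells, for 30 against liver CD11bhigh macrophages, for 22 against kidney CD11bhigh macrophages and for 9 against E14 microglia. Oas2 was the gene with the largest difference of log2 effects, 5.21 against Kupffer cells, 4.96 against kidney F4/80high, 3.28 against Langerhans cells, 5.36 against liver CD11bhigh, 4.4 against kidney CD11bhigh macrophages and 2.34 against E14 microglia. The 6 comparisons share the adult microglia samples. Their counts are to be read beside the shares of all genes called, which are given with each comparison above. That share was largest against Langerhans cells, so the counts cannot be compared with each other as they stand.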

How the results depend on the processing

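Of 255 alternative values of the counts and medians, 245 stayed within the limits used here and 10 moved. Fits with a sample left out are not among these values and are given below. Several of those counts also moved, such as 1 to 8 in adult Kupffer cells in place of 5. With array weights, 1 gene was called in adult Kupffer cells, 1 in adult kidney CD11bhigh macrophages, 16 between adult and E14 microglia and 11 for the difference of effects between adult microglia and kidney CD11bhigh macrophages. With a fit of the compared groups alone, limma called 0 in adult Kupffer cells (8 at an unadjusted p under 0.05), 0 in adult kidney CD11bhigh macrophages (2 at an unadjusted p under 0.05), 1 in E14 kidney F4/80high macrophages, 15 between adult and E14 microglia and 10 for that difference of effects. Without a floor, 1 gene was called in adult kidney CD11bhigh macrophages. The cause was not tested. Leaving out each sample in turn gave 16 to 21 genes called by knockout in adult microglia, 1 to 8 in Kupffer cells, 3 to 7 in kidney F4/80high, 20 to 24 in liver CD11bhigh and 1 to 4 in kidney CD11bhigh macrophages, and 8 to 11 in Langerhans cells. At E14 it gave 10 to 12 in microglia, 20 to 23 in Kupffer cells, 2 to 8 in kidney F4/80high, 19 to 20 in liver CD11bhigh and 18 to 26 in kidney CD11bhigh macrophages, with 12 to 22 in A1 and 13 to 16 in A2. Between stages it gave 5 to 7 in microglia, and for the difference of effects against kidney CD11bhigh macrophages 13 to 25. Of 73 named calls, 55 held under all alternatives run for them, 18 were lost under at least 1 and 0 turned direction. Same-numbered knockout and wild-type samples of a population mostly did not deviate together, with 3 of 38 pairs correlated above 0.1. Deviations within such small groups cannot exclude a shared litter or day. A replicate block left all counts within 1.5 times, with 22 in adult microglia and 25 in adult liver CD11bhigh macrophages.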
